A study of Homo sapiens with 2 samples.

Results

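Small nucleolar RNAs (snoRNAs) and small Cajal body RNAs (scaRNAs) were examined in messenger RNA libraries of HEK293T cells, a cultured line derived from human embryonic kidney. The members are the gene entries whose symbol begins with SNORD, SNORA or SCARNA followed by a number and that held at least 10 reads summed over both libraries. They number 81 of 493 entries with such a symbol and of 57820 gene entries in all, namely 35 SNORD, 32 SNORA and 14 SCARNA genes. The members were thus chosen by their reads summed over both libraries, so their levels are given as a description. There was 1 library from cells given SRα siRNA and 1 library from cells given control siRNA, both from the same cell line. SRα, encoded by SRPRA, belongs to the receptor that docks the signal recognition particle at the endoplasmic reticulum. The labels give neither a time after transfection nor an siRNA sequence. With 1 library per group there was no replicate check and no test between conditions, and every interval below is an exact (Clopper-Pearson) 95% interval that covers counting error only.

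SnoRNAs guide the chemical modification of ribosomal RNA in the nucleolus. C/D box RNAs (SNORD) direct ribose methylation by the enzyme fibrillarin, and H/ACA box RNAs (SNORA) direct the conversion of uridine to pseudouridine by dyskerin. ScaRNAs carry either or both kinds of box, reside in Cajal bodies and guide the same modifications on spliceosomal RNAs. In human cells most of these RNAs are cut out of introns of host genes, while a few, such as the U3 RNA (SNORD3A), are made from promoters of their own.

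The sequences of 9 members are shown. SNORD93, SNORD20, SNORA73B and SCARNA12 are among the most-read of their classes, SNORD17 and SNORD1B are the SNORD genes whose counting interval lay above 0, and SNORA71A, SNORA71D and SNORA71C are relatives that share 1 host gene. They are transcripts of GENCODE 29, matched by gene ID and written as DNA from the 5′ to the 3′ end. In SNORD and SCARNA genes, capitals mark, where found, box C (NTGATGA within the first 25 starting positions) and the last box D (CTGA in the last 15 bases). In SNORA and SCARNA genes, capitals mark the last ACA within the final 8 bases.
SNORD93 (chromosome 7): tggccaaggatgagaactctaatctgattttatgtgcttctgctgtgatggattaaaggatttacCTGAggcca
SNORD20 (chromosome 2): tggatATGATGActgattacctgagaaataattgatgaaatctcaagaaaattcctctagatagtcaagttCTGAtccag
SNORD17 (chromosome 20): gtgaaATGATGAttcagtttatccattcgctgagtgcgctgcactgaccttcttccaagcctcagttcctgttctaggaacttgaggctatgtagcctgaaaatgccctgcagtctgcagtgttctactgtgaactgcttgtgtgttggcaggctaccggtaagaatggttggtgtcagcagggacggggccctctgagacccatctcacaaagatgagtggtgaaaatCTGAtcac
SNORD1B (chromosome 17): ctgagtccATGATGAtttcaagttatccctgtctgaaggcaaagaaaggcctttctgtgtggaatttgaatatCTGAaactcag
SNORA73B (chromosome 1): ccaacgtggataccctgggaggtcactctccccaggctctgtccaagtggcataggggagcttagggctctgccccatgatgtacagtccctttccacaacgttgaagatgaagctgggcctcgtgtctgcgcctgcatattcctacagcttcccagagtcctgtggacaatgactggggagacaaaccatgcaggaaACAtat
SNORA71A (chromosome 20): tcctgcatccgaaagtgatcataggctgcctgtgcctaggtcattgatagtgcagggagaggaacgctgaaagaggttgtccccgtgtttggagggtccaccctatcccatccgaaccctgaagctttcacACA
SNORA71D (chromosome 20): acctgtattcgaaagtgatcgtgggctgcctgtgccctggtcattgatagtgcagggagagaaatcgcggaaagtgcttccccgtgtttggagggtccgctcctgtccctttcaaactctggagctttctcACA
SNORA71C (chromosome 20): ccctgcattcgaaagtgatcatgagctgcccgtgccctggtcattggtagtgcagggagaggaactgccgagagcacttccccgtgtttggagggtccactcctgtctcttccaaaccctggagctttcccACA
SCARNA12 (chromosome 12): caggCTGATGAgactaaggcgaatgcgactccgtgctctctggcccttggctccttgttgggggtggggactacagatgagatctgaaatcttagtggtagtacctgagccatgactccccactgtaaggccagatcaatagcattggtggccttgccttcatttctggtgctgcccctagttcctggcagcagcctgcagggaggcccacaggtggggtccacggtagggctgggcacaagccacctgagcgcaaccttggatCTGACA

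These sequence elements separated the classes as their names say. Only the transcript strand was searched. Boxes C and D were both found in 30 of 35 SNORD members (85.7%) and in 0 of 32 SNORA members, against 60.9% of the 279 other annotated SNORD genes. The terminal ACA was found in 30 of 32 SNORA members (93.8%), in 7 of 35 SNORD members (20%) and in 80.2% of the 182 other annotated SNORA genes. SCARNA members were mixed, with both C and D boxes in 5 of 14 and a terminal ACA in 8 of 14. SCARNA12 held all 3 elements, and its box D overlaps its ACA in the printed sequence. GENCODE 29 classes 10 members as scaRNA, 70 as snoRNA and 1, SCARNA9, as an antisense transcript. The annotation classes SCARNA10, SCARNA12 and SCARNA18 as snoRNAs.

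Reads assigned to genes numbered 3896721 in the SRα siRNA library and 2445200 in the control siRNA library. Levels are in CPM, read counts scaled to a common library total after TMM scaling, with effective library sizes of 3847820 and 2476276. The depleted gene SRPRA had 449 reads in the SRα siRNA library and 507 in the control siRNA library, a log2 ratio of -0.81 (-0.998 to -0.62). All log2 ratios are SRα siRNA over control siRNA, so positive values mean a higher level after SRα siRNA. Of the HEK293T markers, NEFM had 528 reads in the SRα siRNA library and 273 in the control siRNA library, INA had 28 and 10, and PAX2 had 7 and 1. Leukocyte, hepatocyte and fibroblast markers (PTPRC, CD3E, ALB and DCN) held at most 1 read in either library.

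Members took a small and nearly equal share of both libraries. They held 8146 reads in the SRα siRNA library and 5038 in the control siRNA library, which is 0.209% (0.2045% to 0.2136%) and 0.206% (0.2004% to 0.2118%) of reads assigned to genes. The pooled log2 ratio of all members was 0.06 (0.01 to 0.11), a ratio of 1.04. Over the same libraries, all 12110 genes with at least 10 reads had a pooled log2 ratio of 0.04 and a median of 0.01, against a member median of 0.02.

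Of 493 entries with such a symbol, 361 had no read in either library and 51 had 1 to 9 reads. By class, 35 of 280 SNORD entries (12.5%), 32 of 193 SNORA entries (16.6%) and 14 of 20 SCARNA entries (70%) reached 10 reads. At the lower limit, SNORA2B had 4 reads in the SRα siRNA library and 6 in the control siRNA library, SNORD67 had 5 and 5, and SNORA47 had 7 and 4. Just below it, SNORD105 had 5 and 4 reads, SNORD92 had 6 and 3, and SNORD63 had 4 and 4. The median member had 40 reads in the SRα siRNA library and 22 in the control siRNA library. At that depth the counting interval extends from the ratio by 1.72-fold downward and by 1.77-fold upward.

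Reads were concentrated in few members. The 4 most-read genes, SCARNA12, SNORA71A, SNORA73B and SNORA71D, held 39.6% of all member reads. SCARNA12 alone held 63.7% of SCARNA reads, the 2 most-read SNORA genes held 40% of SNORA reads and the 4 most-read SNORD genes held 51.7% of SNORD reads. Per kilobase of gene, levels ran from 7.39 to 1748 CPM, averaged over both libraries. The median SNORD member stood at 136.8 CPM per kilobase in the SRα siRNA library and 104.5 in the control siRNA library. The median SNORA member stood at 78.6 and 73.7, and the median SCARNA member at 50.2 and 50.6. Median lengths were 80 bases for SNORD, 134 for SNORA and 204.5 for SCARNA members. A minimum of 10 reads is a higher level per kilobase in a shorter gene, so this class order is not separate from length. The order of levels was alike in both libraries (Pearson's r 0.970 on log2 values, Spearman's rho 0.968, across 81 genes that share both libraries and are not independent replicates).

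**Figure D1:**
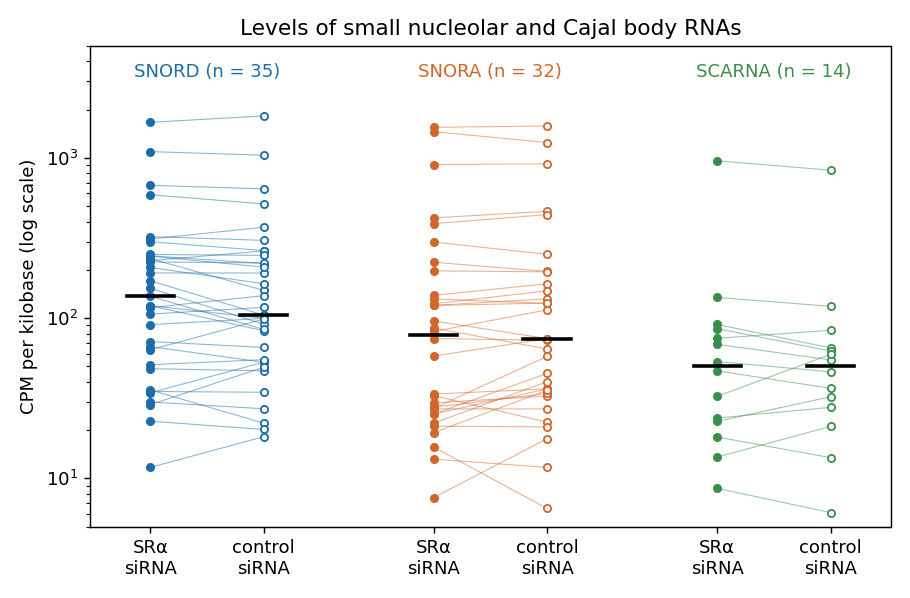
Level of each member in CPM per kilobase (log axis) in the SRα siRNA library (filled points) and the control siRNA library (open points), joined by a line per gene, with the class median as a black bar. Most lines are nearly level, and in each class few genes stand far above the median, SCARNA12 among the SCARNA genes.

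By summed reads, the classes differed little between the libraries. SNORD members held 2777 reads in the SRα siRNA library and 1702 in the control siRNA library, a pooled log2 ratio of 0.07 (-0.02 to 0.16). Without SNORD93, the most-read SNORD gene, the other 34 held 2302 and 1367 reads and the pooled value was 0.12 (0.02 to 0.21). This interval lay clear of 0 under TMM scaling, by a small margin with a lower limit of 0.019. Scaling by library totals moved the pooled value of all SNORD members from 0.0704 to 0.0340, a larger step than that limit. SNORA members held 3808 and 2452 reads, a pooled log2 ratio of -0.00 (-0.07 to 0.07). SCARNA members held 1561 and 884 reads, a pooled log2 ratio of 0.18 (0.06 to 0.31), or a ratio of 1.136 (1.046 to 1.236). The 9 SCARNA genes that overlap no exon of another gene entry held 368 and 220 reads, a pooled value of 0.11 (-0.14 to 0.35), whose interval held 0. The 5 with such overlap, SCARNA12 included, held 1193 and 664 reads (log2 ratio 0.21, 0.07 to 0.35). As shares of all member reads, which need no scaling, SCARNA genes took 19.2% (18.3% to 20%) in the SRα siRNA library and 17.5% (16.5% to 18.6%) in the control siRNA library. SNORA genes took 46.7% (45.7% to 47.8%) and 48.7% (47.3% to 50.1%), and SNORD genes took 34.1% and 33.8%. The SCARNA and SNORA intervals overlapped between the libraries, which does not show the shares to be equal, and their difference was not tested.

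By single genes, 46 of 81 members had a ratio above 0 (56.8%), against 52% of all genes with at least 10 reads. The count was 24 of 35 for SNORD (median 0.07), 13 of 32 for SNORA (median -0.08) and 9 of 14 for SCARNA (median 0.20). At least 1.5-fold higher were 6 members (7.41%, against 5.52% of all genes), and at least 1.5-fold lower were 10 (12.3%, against 5.58%). Fold sizes widen as reads become fewer, and members are read less than the typical gene, with a median sum of 62 reads against 162. Among genes with 10 to 200 reads, 8.7% of the 69 members in that range passed 1.5-fold on the higher side and 14.5% on the lower side, against 9.73% and 10% of all such genes. The 10 members that were 1.5-fold lower had 10 to 42 reads each. By summed reads, 8 of 11 members were above 0 at 10 to 19 reads, 7 of 22 at 20 to 49, 11 of 17 at 50 to 99 and 20 of 31 at 100 or more. The shares of all genes above 0 in the same ranges were 49.7%, 46.2%, 47.8% and 54.7%, and the members' direction followed no order of depth.

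Only 3 members differed by 2-fold or more, of which SNORA53 and SNORA13 are named after their values were seen. SNORA53 was at least 2-fold higher (1 of 81, 1.23%, against 1.73% of all genes), with 15 reads in the SRα siRNA library and 4 in the control siRNA library and a log2 ratio of 1.19 (-0.38 to 3.32). SNORA13 and SNORA2B were at least 2-fold lower (2 of 81, 2.47%, against 1.58%). SNORA13 had 14 reads in the SRα siRNA library and 19 in the control siRNA library (log2 ratio -1.04, -2.18 to -0.004). SNORA2B had 4 and 6 reads (log2 ratio -1.11, -3.49 to 0.86). All 3 rest on fewer than 20 reads in each library.

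The counting interval lay wholly above 0 for 5 members (6.17%, against 5.65% of all genes) and wholly below 0 for 1 member, SNORA13 (1.23%, against 3.39%). This compares the reads of these 2 libraries and not the conditions. The 5 were SCARNA12, SNORA71D, SCARNA9, SNORD17 and SNORD1B, of which SNORD1B was named after its values were seen. Both shares lie close to or below those of all genes, which are read more deeply. Among genes with 10 to 200 reads, the interval lay above 0 for 3 of 69 members (4.35%), against 2.28% of all such genes. It lay below 0 for 1 of the 69 (1.45%), against 2.51%.

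**Figure D2:**
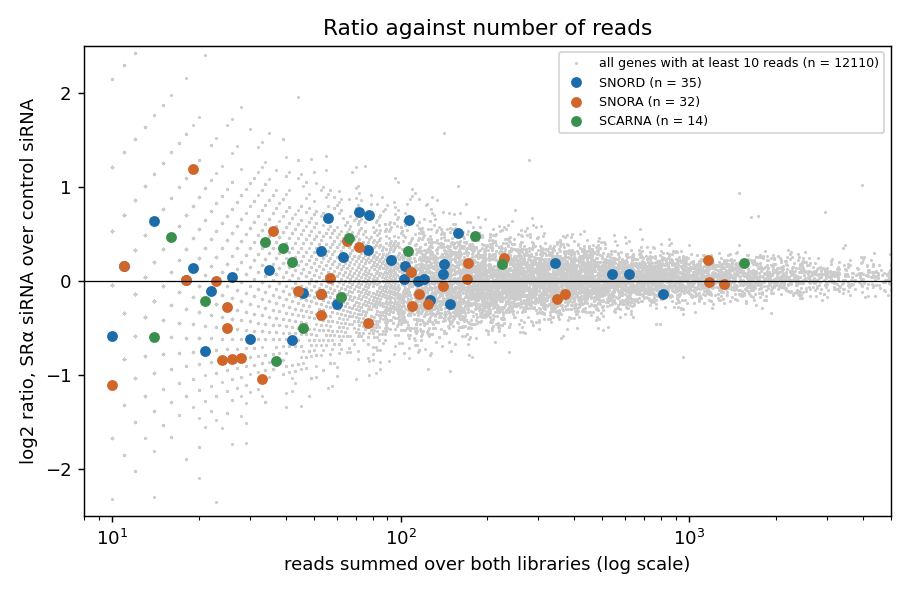
Log2 ratio, SRα siRNA over control siRNA, for each member (coloured points) and all genes with at least 10 reads (grey points), against reads summed over both libraries on a log axis; genes beyond the axes are not drawn. Members lie within the cloud of all genes, and members with over 200 reads lie between -0.19 and 0.25.

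Among C/D box RNAs, the most-read gene was SNORD93, whose sequence is printed above and which guides methylation of the small ribosomal subunit RNA. It had 475 reads in the SRα siRNA library and 335 in the control siRNA library, or 1668 and 1828 CPM per kilobase, and a log2 ratio of -0.13 (-0.34 to 0.07). SNORD15A, a guide for the large ribosomal subunit RNA, had 384 and 235 reads (log2 ratio 0.07, -0.17 to 0.31). SNORD20, a guide for the small subunit RNA, had 337 and 206 reads (log2 ratio 0.07, -0.18 to 0.33). No difference was detectable for these well-read guides at this depth.

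SNORD7, which guides methylation of the U6 spliceosomal RNA rather than ribosomal RNA, had 220 reads in the SRα siRNA library and 124 in the control siRNA library (log2 ratio 0.19, -0.13 to 0.52). SNORD17, an unusually long C/D RNA of 237 bases that targets the large subunit RNA, had 109 and 49 reads (log2 ratio 0.51, 0.02 to 1.03). SNORD104, another guide for the large subunit RNA, had 84 and 64 reads (log2 ratio -0.24, -0.73 to 0.25). SNORD17 was the most-read SNORD gene whose interval stayed above 0, by a small margin. SNORD53 had 90 and 51 reads (log2 ratio 0.18), SNORD38A, a guide for the large subunit RNA, had 87 and 53 (0.08), and SNORD126 had 74 and 47 (0.02).

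The highest ratios among SNORD genes with at least 50 reads belonged to SNORD70, SNORD14E and SNORD19C. SNORD70, a guide for the small subunit RNA, had 52 reads in the SRα siRNA library and 20 in the control siRNA library (log2 ratio 0.73, -0.03 to 1.57). SNORD14E, a copy of the U14 RNA, which yeast needs to process its small subunit RNA, had 56 and 22 reads (log2 ratio 0.70, -0.02 to 1.49). SNORD19C had 40 and 16 reads (log2 ratio 0.67, -0.18 to 1.62). SNORD1B had 76 and 31 reads (log2 ratio 0.65, 0.04 to 1.31). The lowest were SNORD100, a guide for the small subunit RNA, with 34 and 26 reads (log2 ratio -0.24, -1.03 to 0.55), SNORD104, and SNORD60 with 73 and 54 reads (log2 ratio -0.20, -0.73 to 0.33). Of these 7 genes, only the interval of SNORD1B lay clear of 0.

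Among H/ACA box RNAs, the copies of SNORA71, which guide pseudouridine formation in the small subunit RNA, were the most-read family. SNORA71A had 800 reads in the SRα siRNA library and 525 in the control siRNA library, or 1552 and 1582 CPM per kilobase, and a log2 ratio of -0.03 (-0.19 to 0.13). SNORA71D had 752 and 414 reads, or 1458 and 1248 CPM per kilobase, and a log2 ratio of 0.22 (0.05 to 0.40). Of the reads of these 2 copies, SNORA71A took 51.5% (49% to 54.1%) in the SRα siRNA library and 55.9% (52.7% to 59.1%) in the control siRNA library. The ends of these intervals overlapped, which does not show the shares to be equal, and their difference was not tested.

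The printed SNORA71 copies have the same length of 134 bases but very different read counts. SNORA71C, from the same host gene, had 13 reads in the SRα siRNA library and 12 in the control siRNA library, and SNORA71B had 31 and 22. SNORA71A and SNORA71D are 82.8% identical, with 23 edits between them, and SNORA71D and SNORA71C are 86.6% identical, with 18 edits. SNORA60, of another host gene, is 82.1% identical to SNORA71D. It had 218 and 154 reads (log2 ratio -0.13, -0.44 to 0.17).

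SNORA73B, a copy of the U17 RNA, whose yeast counterpart acts in processing of the small subunit RNA, had 714 reads in the SRα siRNA library and 464 in the control siRNA library. Its log2 ratio was -0.01 (-0.18 to 0.16), one of the narrowest intervals among the members. SNORA46 had 202 and 148 reads (log2 ratio -0.19, -0.50 to 0.13). SNORA30 had 148 and 80 reads (log2 ratio 0.25, -0.15 to 0.66), SNORA19 had 110 and 62 (log2 ratio 0.19, -0.27 to 0.66), and SNORA75 had 104 and 66 (log2 ratio 0.02, -0.44 to 0.49). The other extremes among SNORA genes with at least 50 reads were SNORA20 with 44 and 21 reads (log2 ratio 0.42) and SNORA31 with 48 and 24 (0.36). At the low end were SNORA37 with 41 and 36 reads (-0.44), SNORA65 with 29 and 24 (-0.36) and SNORA3B with 62 and 48 (-0.26). The intervals of these 5 all held 0.

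Among scaRNAs, SCARNA12, a guide for the U5 spliceosomal RNA, had more reads than any other member. It had 996 reads in the SRα siRNA library and 561 in the control siRNA library, or 959 and 839 CPM per kilobase, and a log2 ratio of 0.19 (0.04 to 0.34). Without it, the other 13 SCARNA genes held 565 and 323 reads and had a pooled log2 ratio of 0.17 (-0.03 to 0.37), so the class value was nearly as large without its leading gene but its interval then held 0. SCARNA9, which targets the U2 spliceosomal RNA, had 124 and 57 reads (log2 ratio 0.48, 0.02 to 0.96). SCARNA5 had 143 and 81 reads (log2 ratio 0.18, -0.22 to 0.60), and SCARNA6 had 70 and 36 (log2 ratio 0.32, -0.28 to 0.95). SCARNA14 had 45 and 21 reads (log2 ratio 0.46, -0.31 to 1.29), and SCARNA22 had 36 and 26 (log2 ratio -0.16, -0.93 to 0.62).

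By sequence elements, the SCARNA genes divided as follows. SCARNA5, SCARNA6, SCARNA10 and SCARNA7, with boxes C and D and no terminal ACA in the window, were all above 0 and had 247 reads in the SRα siRNA library and 133 in the control siRNA library (log2 ratio 0.26, -0.05 to 0.57). The 7 genes with a terminal ACA and no such C and D boxes had 168 and 120 reads (log2 ratio -0.15, -0.50 to 0.20), with 2 above 0 and 5 below. SCARNA9, with box D and neither box C nor the ACA in the windows, and SCARNA17, with none of the 3 elements, had 150 and 70 reads together (log2 ratio 0.46, 0.05 to 0.89). The intervals of the first 2 groups overlapped, which does not test their difference, and this grouping was made after the values were seen.

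**Figure D3:**
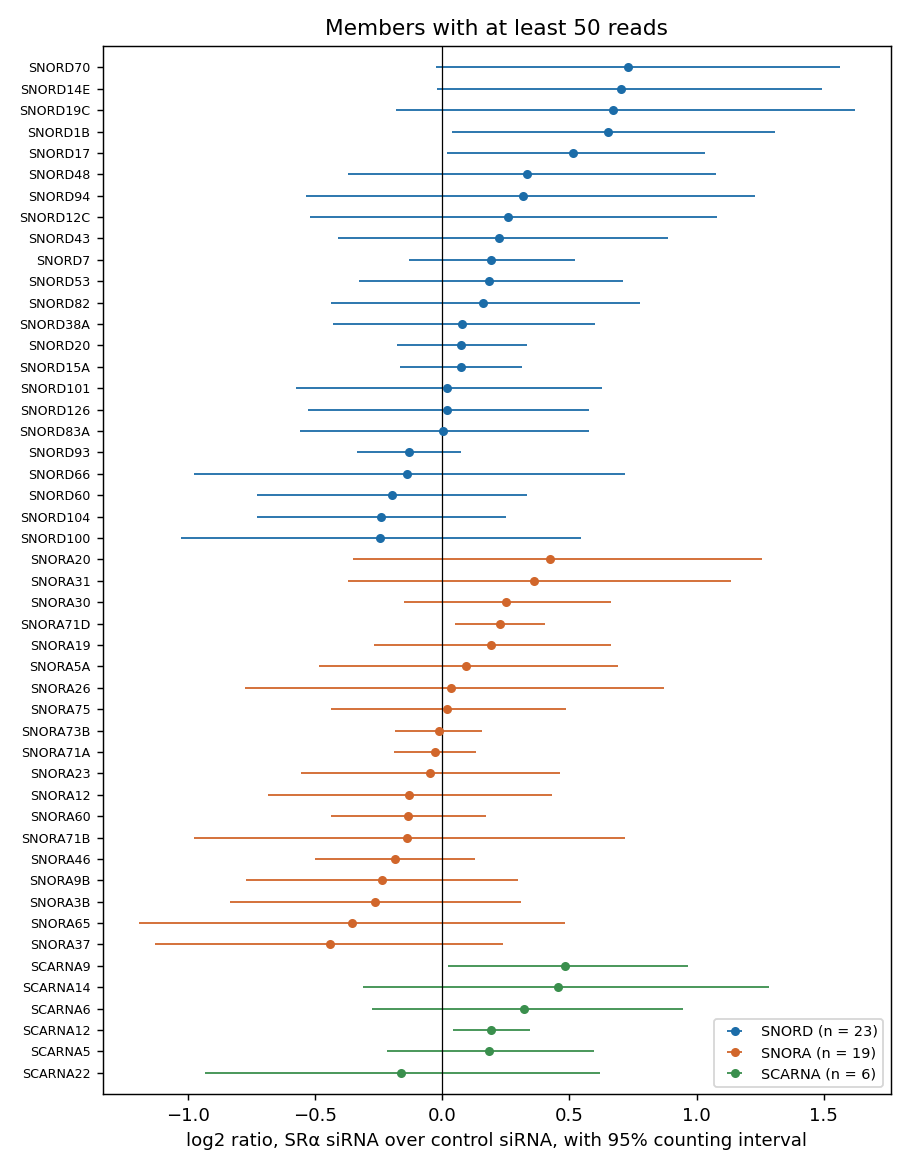
Log2 ratio, SRα siRNA over control siRNA, for the 48 members with at least 50 reads (points), with 95% counting intervals (bars), ordered by class and ratio. The intervals of SNORD1B, SNORD17, SNORA71D, SCARNA9 and SCARNA12 lie above 0 and all others hold 0.

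All 81 members lay inside a longer gene on the same strand in GENCODE 29, whereas 85 of the 361 entries with no read had no such host. For 63 members the host was protein-coding and for 16 it was a noncoding gene, while for SNORA74A and SNORA74D the host was not analysed here. Per kilobase, 58 of the 79 members with a host in the files stood above the exons of the host, counting SNORD48, whose host SNHG32 had no read. The median level was 1.76 times the host for SNORD, 4.01 times for SNORA and 6.77 times for SCARNA. The contrast was wider for noncoding hosts, with a median of 10.2 times against 2.33 times for protein-coding hosts. Host length was the merged exons of all annotated transcripts, such as 7193 bases for RPL27A, the host of SNORA3B. A host that makes only shorter transcripts is thus given too low a level, and which transcripts were made was not tested. Left out of these comparisons are 276 entries with a host and no read, and 47 with 1 to 9 reads. The minimum of 10 reads also sets a lowest level for members, so any member of a little-read host had to stand above that host. SNHG26 and SNHG11, for example, stood at 0.176 and 2.58 CPM per kilobase, against 7.39 for the lowest member. The share above the host, the class order and the contrast by host type are thus in part set by this rule. SNORD93 had 810 reads over both libraries within SNHG26, whose exons had 2 reads in the SRα siRNA library and 1 in the control siRNA library. SNHG17 exons had 130 and 76 reads, against 1596 and 973 reads for its 4 SNORA71 copies. At the other end, SNORD37 stood at 0.038 times the level of its host EEF2, a translation elongation factor.

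**Figure D4:**
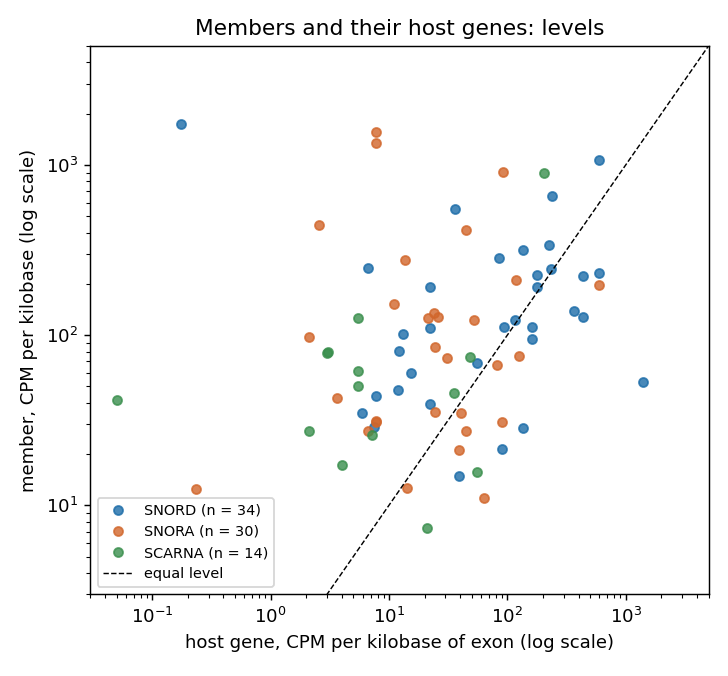
Mean level of 78 members over both libraries in CPM per kilobase (vertical log axis) against that of the exons of the host gene (horizontal log axis), coloured by class, with the line of equal levels. Most points lie above the line, and SNORD93 lies at the upper left, where the member is read far more than its host.

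Ratios of members and hosts were set side by side. The 61 hosts with at least 10 reads had a median log2 ratio of 0.07, with 44 above 0 (72.1%) and 17 below. Over all genes with at least 10 reads the median was 0.01 and 52% were above 0, and the member median was 0.02. The median host had 1002 summed reads, against 162 for all genes. Across 75 members with such a host, Pearson's r between member and host ratio was 0.04 and Spearman's rho was -0.04, as a description of points that share both libraries and in part their hosts. GC content of the members had a Pearson's r of -0.14 and a Spearman's rho of -0.18 with their ratio across all 81. The values were -0.43 and -0.39 across the 46 of the 75 members that had at least 50 reads, and -0.13 and -0.07 across the 30 that had at least 100 reads. Both ratios had the same sign for 37 of the 75. NCL, which encodes nucleolin, hosts SNORD20, SNORA75 and SNORD82. NCL had 16930 reads in the SRα siRNA library and 9494 in the control siRNA library (log2 ratio 0.20, 0.16 to 0.24), and its snoRNAs had log2 ratios of 0.07, 0.02 and 0.16. ATG16L1, an autophagy gene, hosts SCARNA5 and SCARNA6 and had 127 and 83 reads (log2 ratio -0.02, -0.43 to 0.39).

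The log2 ratios of the hosts of members named above are given beside them, though most hosts have many more reads and the members were in part chosen for high or low ratios. SNX5, the host of SNORD17, was at 0.03 (-0.20 to 0.26), and PHB2, the host of SCARNA12, was at 0.06 (-0.04 to 0.16). SNHG16, the host of SNORD1B, was at 0.02 (-0.19 to 0.24), and CEP295, the host of SCARNA9, was at 0.12 (-0.33 to 0.58). Each of these 4 host intervals overlapped that of its member, which does not test their difference. NOP58, the host of SNORD70 and itself a protein of C/D particles, was at 0.21 (0.09 to 0.33), and the heat shock gene HSPA8, the host of SNORD14E, was at 0.21 (0.15 to 0.26). SNHG25, the host of SNORD104, was lower at -0.41 (-0.71 to -0.12), and SNHG30, the host of SNORD7, at -0.36 (-0.69 to -0.04), while SNORD7 itself was at 0.19.

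**Figure D5:**
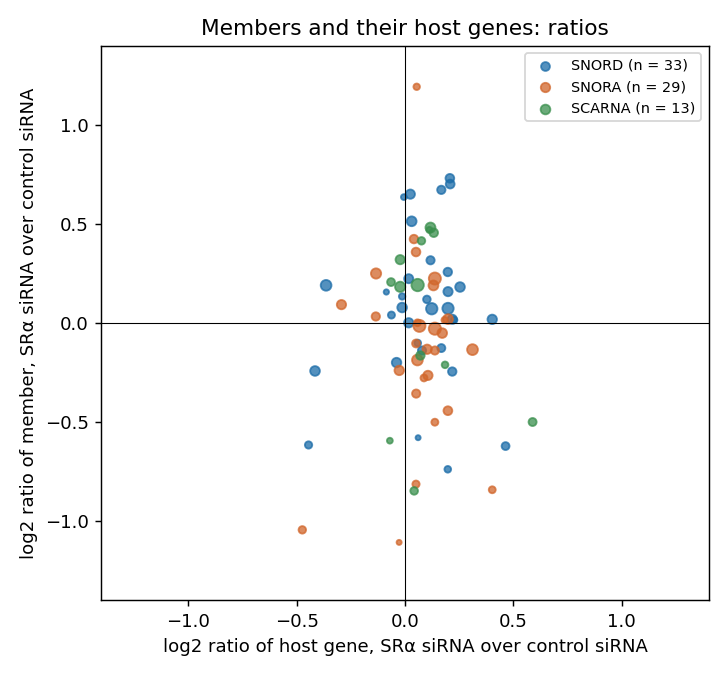
Log2 ratio of each member (vertical axis) against that of its host gene (horizontal axis), SRα siRNA over control siRNA, for 75 members whose host had at least 10 reads; larger points have more reads. Host ratios lie between -0.47 and 0.59, member ratios spread between -1.11 and 1.19, and no common trend is seen.

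Several well-known members of the family were not detected. Of 12 matched entries of RNAs that act in processing of ribosomal RNA, only SNORA73B and SNORD14E reached 10 reads. The U3 entries SNORD3B-1, SNORD3B-2 and SNORD3C had no read and SNORD3A had 1 read in each library. The U8 gene SNORD118 and the U13 gene SNORD13 had no read in either library. The 115 entries of the imprinted clusters, among them 46 SNORD115, 28 SNORD116 and 30 SNORD114 copies, held 0 reads in both libraries. For uniquely aligned reads that fell in only 1 gene entry, this allows up to 0.780 CPM per entry in the SRα siRNA library. In the control siRNA library it allows 1.21 CPM. Reads that were not aligned uniquely, or that fell in several entries, were counted to no entry, so this limit does not cover them. Those in several entries made up 4.58% of uniquely aligned reads in the SRα siRNA library and 4.67% in the control siRNA library. Their part in the zero counts was not tested. Several of these RNAs have near-identical copies, and alignments that were not unique made up 76.5% of all counted in the SRα siRNA library and 79.6% in the control siRNA library; their part in the zero counts was not tested. A well-read host did not ensure a counted read. None was counted for the 5 entries within NOP56, a C/D particle protein gene with 1213 and 825 reads. The same held for the 5 within EIF4A2, a helicase of translation initiation with 334 and 187 reads.

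Genes for the proteins of these particles differed by less than 1.5-fold between the libraries, where they had at least 10 reads. Of 27 listed genes for particle cores, assembly and Cajal bodies, 25 had at least 10 reads, with a median log2 ratio of 0.05, 18 above 0 (72%, against 52% of all genes), 7 below and 0 past 1.5-fold. The counting interval lay above 0 for 7 of the 25 (28%, against 5.65% of all genes) and below 0 for 1 (4%, against 3.39%). These genes are read more deeply than the typical gene, with a median of 942 summed reads against 162, so their intervals are narrower. How much of the difference from all genes goes with depth was not tested. Among C/D core proteins, the methyltransferase FBL had 2363 reads in the SRα siRNA library and 1530 in the control siRNA library (log2 ratio -0.01, -0.10 to 0.08). The log2 ratio of NOP56 was -0.08, with SNU13 at -0.02 and NOP58 at 0.21. Among H/ACA core proteins, the pseudouridine synthase DKC1 had 1609 and 1007 reads (log2 ratio 0.04, -0.07 to 0.16), NHP2 was at -0.01, GAR1 at 0.15 and NOP10 at 0.22 (0.05 to 0.40).

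The highest log2 ratios on the list belonged to the H/ACA assembly factor SHQ1 at 0.28 (0.03 to 0.52), the co-chaperone RPAP3 at 0.26 (0.04 to 0.48), the processome protein UTP15 at 0.24 (0.04 to 0.44) and NOP10. The lowest were the U3 particle protein RRP9 at -0.34 (-0.65 to -0.04), PIH1D1, which acts with RPAP3, at -0.22 (-0.53 to 0.09), NOP56, and the helicase RUVBL2 at -0.06 (-0.19 to 0.07). Telomerase RNA, TERC, which carries an H/ACA domain, had 1678 reads in the SRα siRNA library and 1177 in the control siRNA library (log2 ratio -0.12, -0.23 to -0.02).

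The values carry limits of the assay. Per the labels, the libraries were made with a kit for messenger RNA, which captures polyadenylated RNA, and how the reads divide among mature snoRNAs, their precursors and host introns was not tested. Of the members, 20 overlap an exon of another gene entry in GENCODE 29. For 14 of them, among them SCARNA12, SNORD15A, SNORD7 and SNORA53, it is an exon of the host gene, and for 6, among them SCARNA9, it is another entry. Members without such overlap had a pooled log2 ratio of 0.02 (-0.04 to 0.08), and those with it 0.15 (0.05 to 0.25).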

How the data were processed

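The deposited values are raw read counts per Ensembl gene ID, 1 file per library. Trimming and alignment used cutadapt and STAR 2.5.2b with genome build hg19, per the submitters' processing notes. The counting program was not given in the sources used here, nor was the strand setting or gene annotation. The 5 summary lines of each file name no gene and were left out of library sizes. Reads in no gene or in several genes made up 12.1% of uniquely aligned reads in the SRα siRNA library and 11.9% in the control siRNA library.

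Gene IDs were paired with symbols through a names table, which held 51996 of 57820. GENCODE 29 is on another build, so it was used by gene ID for types, lengths, hosts, exon overlaps, chromosomes and sequences, with no coordinates. A host is the gene on the same strand that contains the member, and of several the one with most reads. Identity is 1 minus the edits over the longer length.

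Libraries were scaled by TMM on all genes (edgeR 4.0.16, R 4.3.3). Before log2 ratios were taken, 0.5 reads, scaled to depth, were added to each count. Intervals are exact (Clopper-Pearson), from the binomial share of a gene's summed reads that fell in each library. Reads carry no molecular identifiers, so intervals and floors (3 counts per library) cover counting error only. The procedure was tested on simulated data. Alternatives tried were other minimums, scaling by DESeq2 1.42.0, by library totals or by upper quartiles, a prior of 2, thinning, and leaving members out. The class medians without the most-read member, and all alternatives for host and protein genes, were added after the data had been seen. Python 3.11.15, numpy 2.4.6, pandas 2.3.3, scipy 1.17.1 and matplotlib 3.10.9 were used.

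The members and gene lists were chosen with earlier results of these data known. Named members are the most-read of each class, by reads and per kilobase (8 SNORD, 8 SNORA, 6 SCARNA), the 3 highest and 3 lowest ratios of each class among genes with at least 50 reads, the ribosomal RNA processing list, and those next to the minimum. SNORA53, SNORA13, SNORD1B, SNORD37, SNORD48, SNORD82, SNORA71B, SNORA71C, SNORA74A, SNORA74D, SCARNA7, SCARNA10, SCARNA17 and SCARNA18 fall outside this rule and were named after their values were seen. Named protein genes are the core proteins and the 4 highest and 4 lowest of their list. SMN1 and ZNHIT3 of that list had under 10 reads or no matching ID.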

Additional observations from a re-analysis of the deposited data

How the results depend on the processing

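No paired analysis was possible because each group has 1 library. Of 265 values recomputed under alternatives, 255 stayed within a set tolerance, and 0 changed the sign of a value whose interval had excluded 0. Only signs were checked, intervals were not recomputed, and SNORD1B and SNORA13 were not among the genes recomputed. With library totals, SNORD17 went from 0.514 to 0.478 and SCARNA9 from 0.483 to 0.446. Their lower limits in the main setting were 0.0186 and 0.0217, so whether these intervals stay clear of 0 depends on the scaling. The tolerance came from the counting interval for single genes and classes. It was a fixed size for host and protein medians and for counts. Little-read genes have wide intervals, so the tally says little about the single-gene values, of which all 180 stayed within it. Among them, SNORD67 went from -0.58 to -1.85 after thinning. The pooled log2 ratio of SCARNA members ranged from 0.11, among members that overlap no exon of another gene entry, to 0.23, that of SNORD from 0.03 to 0.12 and that of SNORA from -0.04 to 0.02. Counts of 2-fold members moved with the minimum of reads. The count of members at least 2-fold higher was 1 in the main setting, 0 with a minimum of 20 reads, 0 with 50, 22 with no minimum beyond 1 read and 0 among members that overlap no exon of another gene. The count at least 2-fold lower was 2 in the main setting, 1 with a minimum of 20 reads, 0 with 50, 10 with no minimum beyond 1 read, 4 after thinning to equal totals and 0 with a prior count of 2. The median log2 ratio of SNORA members was 0.0177 with no minimum beyond 1 read, against -0.08. The cause of these moves was not tested, apart from the number of genes each minimum admits. The median of all genes moved from 0.01 under TMM to -0.03 with library totals.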
